A study of Sus scrofa with 50 samples.

Results

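The genes described here carry fatty acids from the blood into the mitochondrion: LIPL (lipoprotein lipase, gene LPL), CD36, the fatty acid-binding proteins FABPH (FABP3), FABPL (FABP1) and FABP4, the acyl-CoA synthetase ACSL1, the carnitine palmitoyltransferases CPT1A and CPT1B, and MCAT (the mitochondrial carnitine/acylcarnitine carrier, SLC25A20). These 9 genes were chosen by name. Each is a Swiss-Prot entry name, and its level is the sum over the assembled transcripts whose best protein match carries that name. They took 33 of 57085 transcripts, or 9 of 35133 genes in all, of which 14532 had a Swiss-Prot entry and the others were single transcripts without a match.

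RNA of 10 Korean minipigs was measured by stranded mRNA sequencing of 5 tissues, namely heart, kidney, liver, lung and spleen. The animals were 5 of the ET-type (S0235, S0242, S0276, S0309 and S0326) and 5 of the L-type (S0349, S0355, S0377, S0384 and S0385). Every animal gave each tissue, so there were 50 libraries. The labels name the type, tissue and animal; genotype, treatment, age, sex and feeding state are not given in the labels used here. Levels are in TPM, transcripts per 1000000, which divides reads by transcript length and scales each library to the same total, so a level is a share of the library's RNA. Read depth is unknown, and the number of animals sets the precision.

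Long-chain fatty acids reach a cell bound to albumin or are released from lipoprotein triglyceride at the capillary wall by lipoprotein lipase. CD36 helps them across the plasma membrane, binding proteins hold them in the cytosol, and acyl-CoA synthetases join them to coenzyme A. CPT1 on the outer mitochondrial membrane then swaps coenzyme A for carnitine, a step blocked by malonyl-CoA, and the carrier takes the acylcarnitine across the inner membrane, where it can be oxidised. Heart muscle draws much of its energy this way, and liver uses it to make ketone bodies.

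The kidney library of ET-type S0235 is given apart throughout. Its summed level of 8 kidney tubule markers was 7.53 TPM against 1197 to 7366 TPM in the other 9 kidneys, and that of 8 lymphocyte markers was 1994 TPM against 13.2 to 67.2 TPM. In it CPT1A (19.0 TPM), MCAT (13.2 TPM), FABPH (18.8 TPM), FABP4 (7.21 TPM) and ACSL1 (22.1 TPM) lay below all other kidneys, and the other 4 genes lay within their range. The heart, liver and lung libraries carried the defining markers of their tissue, and no 2 libraries were duplicates.

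The tissues differed far more than the types or the animals. Over the 4 tissues other than kidney, the tissue accounted for 57.6% of the variance of CPT1A on the log2(TPM + 1) scale and for 77.5% to 98.4% of that of the other 8 genes. Heart had the highest level of 5 genes (LIPL, CD36, FABPH, FABP4 and CPT1B), liver of FABPL and ACSL1, and spleen of MCAT, while kidney, liver and spleen were not separated by the test as neighbours for CPT1A. In these bulk samples, fewer cells of a type and less RNA per cell cannot be told apart.

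**Figure D1:**
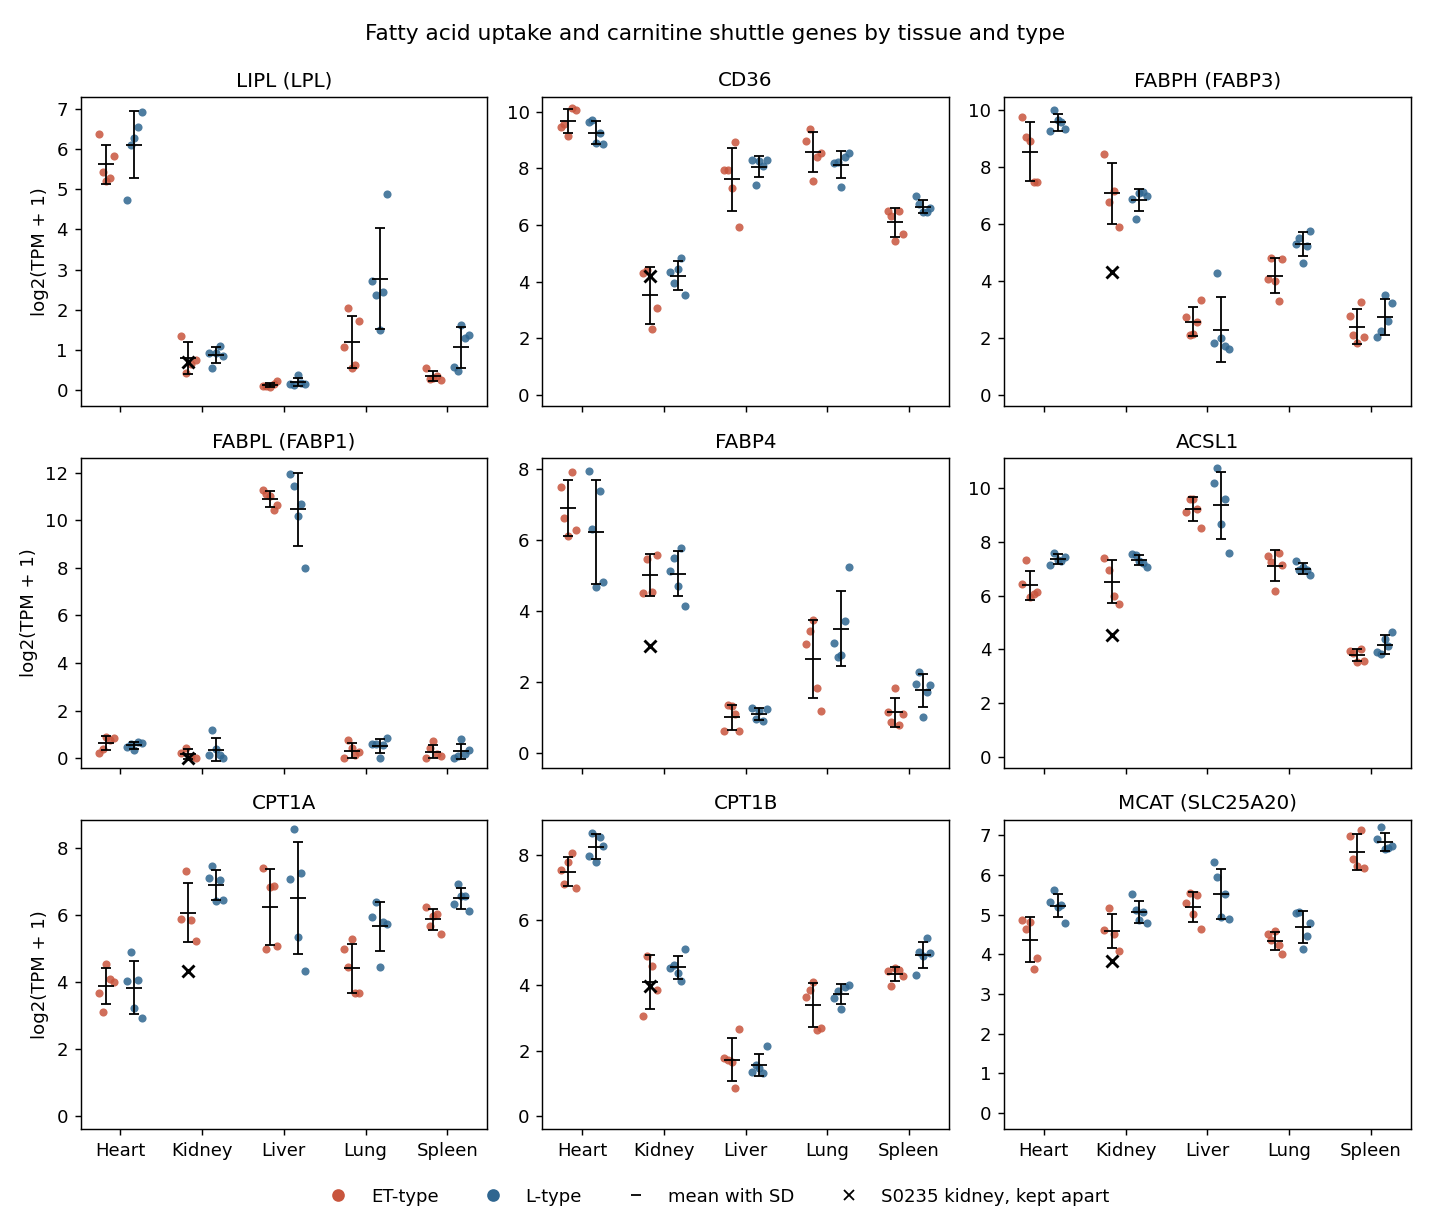
Level of each of the 9 genes as log2(TPM + 1) by tissue, with 1 point per library, ET-type in red and L-type in blue, and black bars for the mean and SD of each group. Tissues stand apart for most genes while the types overlap; the cross is the S0235 kidney, which lies below the other kidneys for 5 genes.

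LIPL, which splits triglyceride from circulating lipoproteins (RefSeq Sscrofa11.1 chromosome 14, 4104761 to 4134964), was nearly restricted to heart in level. Its heart libraries ran from 25.5 TPM through a median of 61.2 TPM to 120.2 TPM (mean 63.3 ± 29.7, SD, n = 10). Lung followed at 5.19 ± 8.39 TPM, with a median of 2.69 TPM and a single library at 28.6 TPM. Kidney (0.817 ± 0.371 TPM, n = 9), spleen (0.740 ± 0.697 TPM) and liver (0.122 ± 0.0711 TPM) were low. On log2(TPM + 1), heart exceeded lung by 3.87 ± 0.28 (SE, limma adjusted p = 1.93e-17) and lung exceeded kidney by 1.19 ± 0.29 (limma adjusted p = 0.000367). Spleen was not separated at the threshold of 0.05 from kidney above it or liver below it in the order. Kidney exceeded liver by 0.64 ± 0.29 (limma adjusted p = 0.0461). With a pseudocount of 0.1, liver fell below spleen past the threshold (difference -1.57). The fold is understated at such low levels because of the pseudocount of 1.

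The genes that act around LIPL had other patterns. HDBP1 (GPIHBP1), which anchors the lipase on capillary endothelium, was 47.8 ± 26.9 TPM in ET-type and 37.8 ± 16.8 TPM in L-type hearts, but reached 246 ± 174 TPM in L-type lungs, where LIPL was low. ANGL4, an inhibitor of the lipase, was highest in liver (269 ± 104 TPM in ET-type and 204 ± 66.9 TPM in L-type), the tissue with the least LIPL. In spleen, where LIPL did not exceed 2.09 TPM, the anchor was at 63.8 ± 17.04 TPM in ET-type and 59.8 ± 17.6 TPM in L-type animals.

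CD36, the membrane receptor for long-chain fatty acids (chromosome 9, 99685748 to 99782296), was among the most abundant entries of the heart, ranking 129 of 14532 by mean TPM. Heart libraries lay between 456 and 1110.0 TPM (mean 732 ± 225, n = 10). Lung had 351 ± 148 TPM, liver 255 ± 113 TPM, spleen 84.9 ± 24.5 TPM and kidney 15.8 ± 7.39 TPM. Heart exceeded lung by 1.11 ± 0.28 on the log2 scale (limma adjusted p = 0.000363), liver exceeded spleen by 1.47 ± 0.28 (adjusted p = 9.45e-06) and spleen exceeded kidney by 2.47 ± 0.29 (adjusted p = 2.02e-10). Every kidney lay below every other library, the highest kidney being at 27.4 TPM and the lowest of the 40 others at 42.2 TPM. The difference between lung and liver missed the threshold (adjusted p = 0.0834), and with libraries rescaled by median ratios liver stood above lung by 0.65 (adjusted p = 0.0265), whereas lung stood above liver past it without S0309 (0.0295) or S0377 (0.0322).

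The CD36 total was made of different assembled transcripts in liver and elsewhere. A transcript of 1704 bases assembled from L-type liver, matching bovine CD36 from residue 1 to 472 at 83.5% identity, held 97.8% of the liver CD36 level. The same transcript held 0.207% of it in heart, 0.495% in lung, 9.55% in kidney and 21.9% in spleen. In heart and lung the level came mainly from a transcript of 2807 bases, matching the same residues at 90.7% identity (44.5% of heart CD36 and 37.2% of lung CD36), and one of 1524 bases that covers residues 418 to 472 (47.8% and 54.6%). Liver CD36 thus rested on a sequence that was nearly absent from the 2 other CD36-rich tissues. Whether the liver transcript comes from the same locus was not tested, and the CD36 of liver compared with that of other tissues depends on counting both under 1 name.

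**Figure D2:**
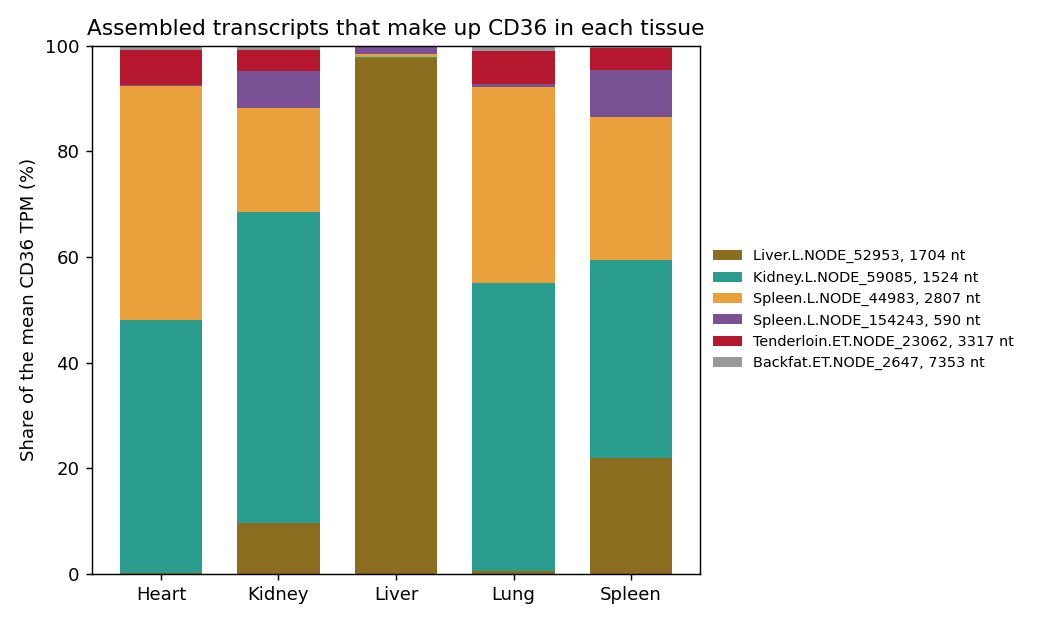
Share of the mean CD36 TPM of each tissue, in percent, held by each of its 6 assembled transcripts, named by the assembly they came from and their length in nucleotides (nt). Liver is filled almost wholly by the 1704-nt transcript, which is barely visible in heart and lung.

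The binding proteins divided the tissues between them. FABPH, the muscle form (chromosome 6, 87943003 to 87950708), was 609 ± 279 TPM in heart (range 175 to 1028, n = 10), 138 ± 85.3 TPM in kidney (n = 9), 28.9 ± 14.0 TPM in lung and 5.47 ± 5.07 and 5.41 ± 2.82 TPM in liver and spleen. Each step down from heart to kidney (2.13 ± 0.33 on the log2 scale), to lung (2.19 ± 0.33) and to spleen (2.17 ± 0.32) passed the test, with limma adjusted p of 2.21e-07, 1.61e-07 and 8.75e-08. The difference between spleen and liver missed the threshold (adjusted p = 0.764).

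FABPL, the liver form (chromosome 3, 57850511 to 57854966), was 1963 ± 1018 TPM in liver, ranking 49 of 14532 entries there. The liver libraries ran from 254 TPM in L-type S0385 through a median of 1880 TPM to 4005 TPM in L-type S0349. Every other library had at most 1.24 TPM, and the difference from heart, next in order, was 10.10 ± 0.25 on the log2 scale (limma adjusted p = 1.56e-36). The differences between the remaining neighbours missed the threshold, and at levels under 1 TPM their order carries no information.

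FABP4, the form of fat cells, macrophages and capillary endothelium (chromosome 4, 55096400 to 55101209), was 121 ± 82.4 TPM in heart (range 24.9 to 245), 34.4 ± 13.4 TPM in kidney, 10.2 ± 10.2 TPM in lung, 1.94 ± 1.08 TPM in spleen and 1.12 ± 0.377 TPM in liver. Heart exceeded kidney by 1.53 ± 0.36 (limma adjusted p = 0.000242), kidney exceeded lung by 1.95 ± 0.36 (8.27e-06) and lung exceeded spleen by 1.62 ± 0.35 (8.68e-05). Of 7 adipocyte markers measured, other than FABP4, 4 were at 1 TPM or more in every heart (CFAD, PLIN4, CIDEA and CIDEC), and the 7 summed to 234 to 526.05 TPM in ET-type and 159 to 237 TPM in L-type hearts. Most of that sum was CFAD (complement factor D), at 286 ± 123 and 137 ± 42.5 TPM. The other 3 stayed below 1 TPM: ADIPO (adiponectin) reached at most 0.337 TPM, LEP (leptin) 0.0125 TPM and PLIN1 (perilipin of the fat droplet) 0.548 TPM. The part of fat cells in heart FABP4 was not tested. In liver, 39.1% of the small FABP4 level came from a transcript matching only 50% of the aligned pig FABP4 residues, so liver FABP4 is uncertain.

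As shares of the 3 binding proteins together, FABPH made up 80.5 ± 16.4% in heart, 76.5 ± 12.9% in kidney, 74.8 ± 12.7% in lung and 69.0 ± 16.0% in spleen, and FABPL made up 99.6 ± 0.367% in liver. The sum of the 3 ran from 7.59 ± 2.74 TPM in spleen to 1970 ± 1020 TPM in liver. The FABPH shares of kidney, lung and spleen lay within 1 SD of that of heart, at far lower totals.

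ACSL1, which activates long-chain fatty acids by joining them to coenzyme A (chromosome 15, 45866858 to 45936327), was 735 ± 442 TPM in liver, with a range of 190.1 to 1714 TPM, and ranked 153 there. Lung (137 ± 35.05 TPM), kidney (134 ± 48.3 TPM, n = 9) and heart (126 ± 50.2 TPM) were not separated by the test as neighbours, and spleen had 15.1 ± 4.10 TPM. Liver exceeded lung by 2.23 ± 0.25 (limma adjusted p = 6.08e-11) and heart exceeded spleen by 2.89 ± 0.25 (adjusted p = 4.00e-14). All 10 spleens lay below all other libraries, at 23.8 TPM or less against 50.6 TPM or more. With median-ratio rescaling heart stood above kidney by 0.63 (adjusted p = 0.0444).

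CPT1B, the muscle form of the enzyme that commits fatty acids to mitochondrial entry (chromosome 5, 155552 to 163536), was 249 ± 93.8 TPM in heart. All 10 hearts lay above all other libraries, the lowest heart at 124 TPM and the highest of the others, a spleen, at 42.9 TPM. Spleen (25.0 ± 8.40 TPM) and kidney (20.9 ± 7.83 TPM) were not separated by the test, lung had 11.5 ± 3.89 TPM and liver 2.31 ± 1.27 TPM. Heart exceeded spleen by 3.23 ± 0.22 on the log2 scale (limma adjusted p = 2.77e-18), kidney exceeded lung by 0.76 ± 0.22 (0.00265) and lung exceeded liver by 1.92 ± 0.22 (3.87e-11). The transcript with most of the CPT1B level, of 5398 bases, matched pig CPT1B over residues 1 to 772, and the annotation gave choline kinase beta for its predicted peptide, so reads of that gene and of CPT1B could not be separated on it.

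CPT1A, the liver form (chromosome 2, 4250642 to 4293914), had the reverse placement of heart. Its heart libraries lay between 6.62 and 28.9 TPM (mean 14.7 ± 6.89). Liver had 119 ± 107 TPM, kidney 103 ± 49.5 TPM, spleen 74.8 ± 23.0 TPM and lung 38.4 ± 23.7 TPM. Differences between kidney, liver and spleen as neighbours missed the threshold, and spleen exceeded lung by 1.15 ± 0.36 (limma adjusted p = 0.00505). Lung exceeded heart by 1.18 ± 0.36 (adjusted p = 0.00296), a call lost without mitochondrial transcripts (adjusted p = 0.123) and under median-ratio rescaling, where the difference was 0.00448 in favour of heart. Mitochondrially encoded transcripts took 37.4 ± 6.19% of TPM in heart and 6.44 ± 3.90% in lung, and the median gene stood 0.99 lower in heart than in lung on the log2 scale.

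The ratio of the CPT1 forms does not depend on that scaling. CPT1B made up 94.1 ± 2.54% of the CPT1A and CPT1B total in heart, with a range of 89.4% to 97.9%. It made up 26.2 ± 7.97% in lung, 25.2 ± 4.40% in spleen, 18.5 ± 7.47% in kidney (n = 9) and 4.70 ± 5.61% in liver. The 5398-base transcript, on which reads of choline kinase beta could not be separated, held 54.3% of CPT1B in heart. Its share of CPT1B was 66.5% in lung, 67.8% in spleen, 65.8% in kidney and 58.6% in liver. The part of choline kinase beta in the CPT1B shares was not tested. The range over hearts did not meet that of any other tissue, where the highest share was 39.7%. CPT1C, the form found mainly in brain, stayed at 11.3 ± 1.16 TPM or less in every group.

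**Figure D3:**
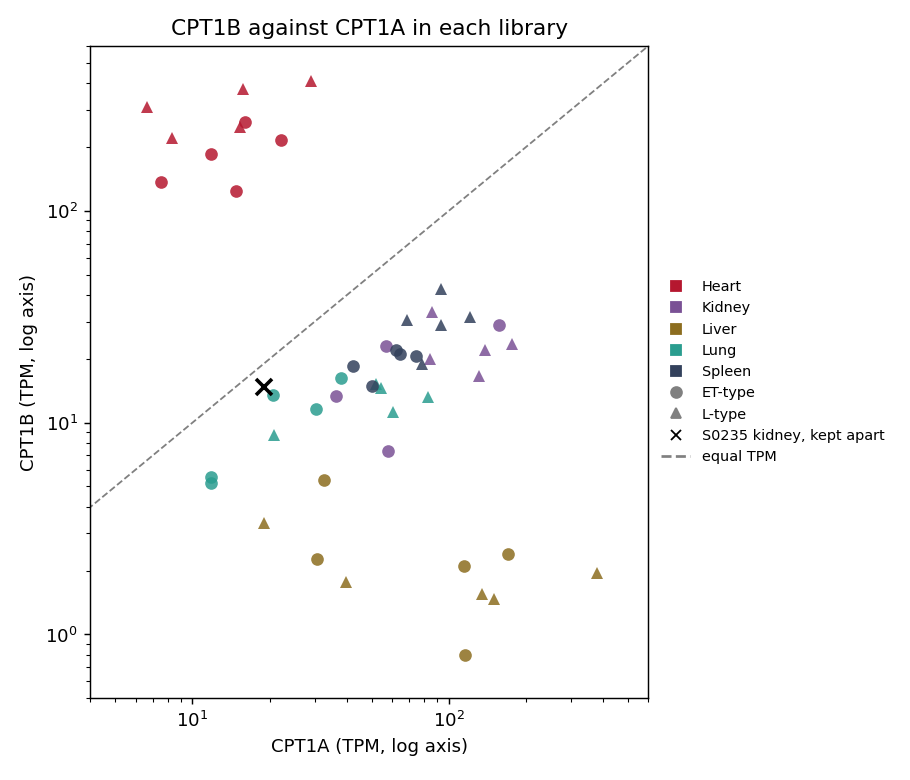
CPT1B against CPT1A in TPM, both on log axes, with 1 point per library coloured by tissue, circles for ET-type and triangles for L-type, and a dashed line at equal levels. Hearts lie above the line, where CPT1B makes up at least 89.4% of the sum, and every other library lies below it.

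MCAT, the carrier that exchanges acylcarnitine for carnitine across the inner membrane (SLC25A20, chromosome 13, 31523820 to 31553289), was highest in spleen. Spleen libraries lay between 71.6 and 147 TPM (mean 107 ± 26.2), liver had 42.7 ± 16.8 TPM, heart 29.1 ± 11.2 TPM, kidney 29.0 ± 8.43 TPM and lung 22.6 ± 6.08 TPM. Spleen exceeded liver by 1.35 ± 0.18 on the log2 scale (limma adjusted p = 6.79e-09). Liver exceeded kidney by 0.53 ± 0.19 (adjusted p = 0.0109), a call lost without mitochondrial transcripts (0.321). Heart was not separated by the test from kidney or lung in TPM, yet it exceeded kidney by 0.66 under median-ratio rescaling (0.00830) and lung by 1.48 (5.05e-08). Heart also exceeded lung past the threshold without mitochondrial transcripts (2.83e-05) or without S0309 (0.0488). Spleen, highest in the carrier, was lowest in ACSL1. CPT2, the inner-membrane partner of CPT1, was at 5.93 ± 1.98 TPM in ET-type and 8.63 ± 2.07 TPM in L-type spleens, and 95.4 ± 48.3 and 94.5 ± 40.0 TPM in the livers.

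Counted over the 10 pairs of tissues, 69 of the 90 tests of the 9 genes passed the threshold, against a background that was itself high. Heart differed from kidney in 6 genes (65.5% of all genes tested passed), from liver in 9 (52.4%), from lung in 6 (79.6%) and from spleen in 8 (54.3%). Kidney differed from liver in 8 (65.6%), from lung in 6 (60.7%) and from spleen in 5 (56.6%). Liver differed from lung in 8 (79.9%) and from spleen in 5 (59.2%), and lung from spleen in 8 (65%). Heart and liver were the pair in which all 9 differed; whether any of these shares departs from that of all genes was not tested.

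By likeness over the 49 libraries on log2(TPM + 1), the entries nearest to CPT1B were ACTS (Pearson r = 0.966), WNK2 and SGCA, those nearest to LIPL were ASB15 (0.952), MYLK3 and MYH7, and those nearest to FABPH were ASB11 (0.954), FMC1 and PE2R3. FABPL was nearest to SPP24 (0.996), SO1B3 and PZP, and ACSL1 to PANK1 (0.925), GSTK1 and ZA2G. FABP4 was nearest to ASB16 (0.913), UN5CL and FABPH, CD36 to LNEBL (0.898), SRBS2 and GATA6, MCAT to MADCA (0.870), NELL2 and LT4R2, and CPT1A to VASN (0.790), SPSB2 and NINJ1. These coefficients describe mainly the order of tissues, since libraries of a tissue cluster and tissues share animals.

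CPT1A was the gene with the largest share of variance between animals of a type, 20.9% against 0.274% to 8.15% for the others. L-type S0355 had the highest CPT1A of its tissue in all 5 tissues, at 28.9 TPM in heart, 176 TPM in kidney, 378 TPM in liver, 83.3 TPM in lung and 121 TPM in spleen. This animal was singled out after its values were seen.

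The presence of 1 CPT1A transcript split the animals in the same way in every tissue. This transcript, of 2398 bases, was assembled from ET-type backfat and matched human CPT1A over residues 677 to 773 at 86.6% identity. It was listed at 0 TPM in all 25 libraries of S0276, S0326, S0355, S0384 and S0385. In S0235, S0242, S0309, S0349 and S0377 it was present in every tissue, at 2.41 to 86.1 TPM and 23.8% to 60.9% of the animal's CPT1A. The split ran across the types, with 3 ET-type and 2 L-type animals carrying it. The S0235 kidney library, left out of those counts, had it too, at 6.87 TPM or 36.1% of CPT1A. A transcript of 2389 bases matched the same residues at the same identity, so the 2 cannot be told apart by their protein match.

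**Figure D4:**
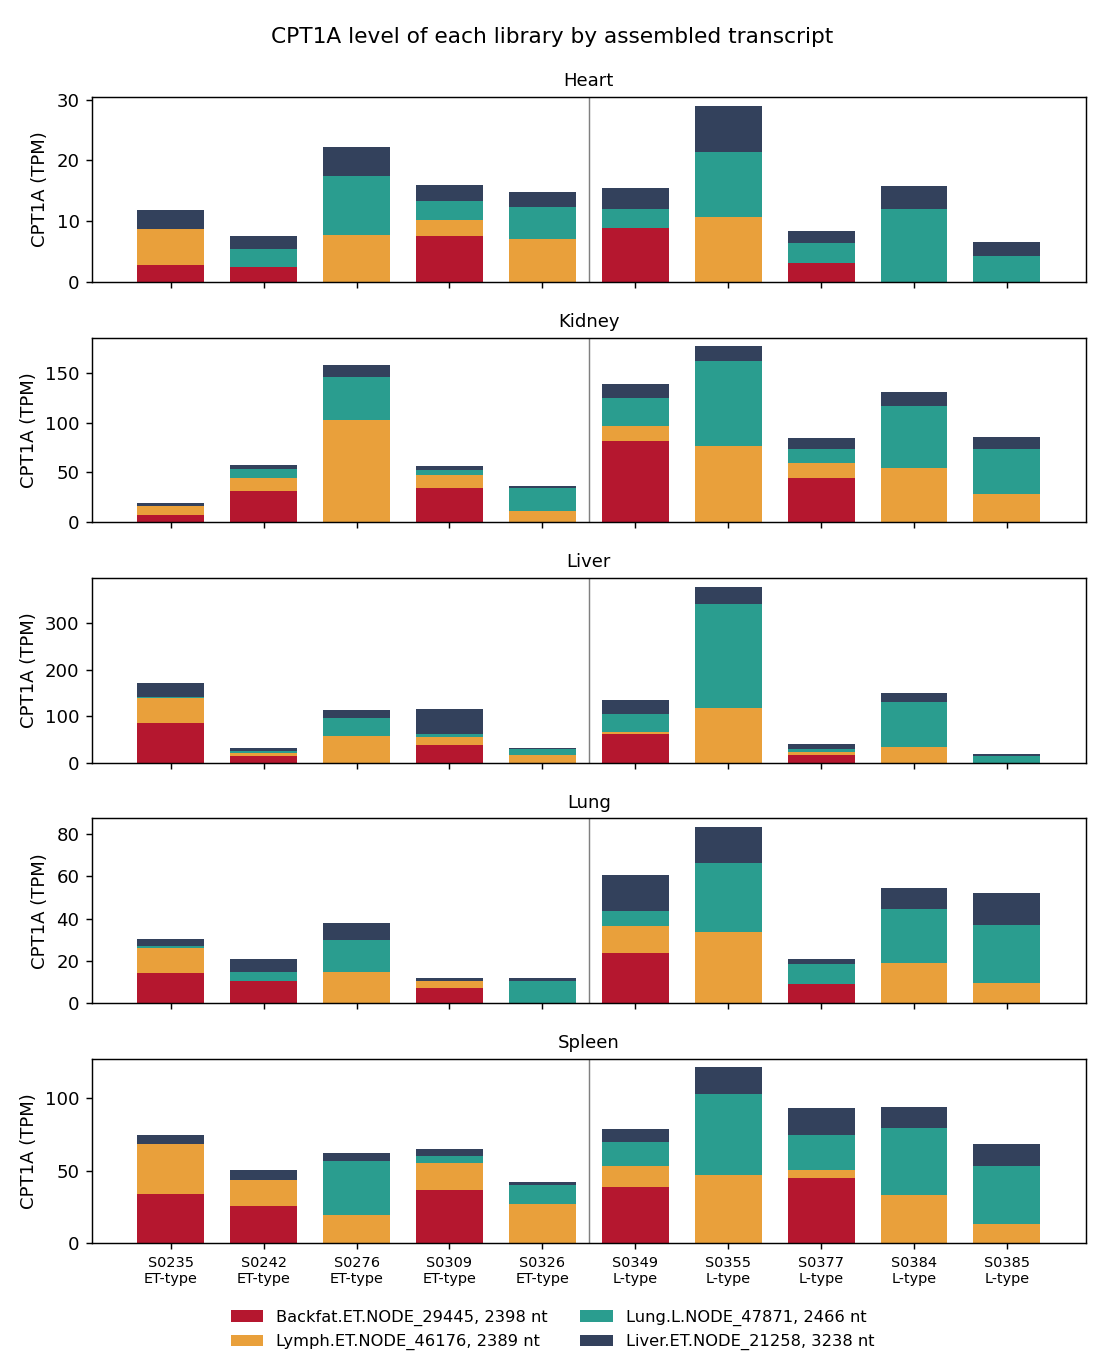
CPT1A level in TPM of every library, stacked by its 4 assembled transcripts (named by assembly and length in nucleotides, nt), with 1 bar per animal and 1 panel per tissue. The red 2398-nt transcript is present in all tissues of S0235, S0242, S0309, S0349 and S0377 and at 0 in all tissues of the other 5 animals; S0355 has the tallest bar in every panel.

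Few transcripts met a rule that describes this pattern. Of 57085 transcripts, 92 (0.161%) were under 0.1 TPM in every tissue of some animals and at 1 TPM or more in every tissue of all the others, and 5 of these split the animals 5 to 5. Transcripts low in any tissue of all animals cannot meet that rule, so the share is not a rate among those that could. Among the 33 transcripts of the 9 genes, the 2398-base CPT1A transcript was the only one to meet it. The full-length CPT1A transcript, of 3238 bases over residues 1 to 773, held only 9.39% to 23.3% of the CPT1A level, and the rest came from 3 shorter-matching transcripts of which one, of 2466 bases, matched at 75%. CPT1A totals therefore rest largely on sequences that match only the end of the protein.

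The ET-type and L-type animals were compared within each tissue; a negative difference on log2(TPM + 1) means a lower level in ET-type, and p-values measure the spread between these animals. A gene was tested in a tissue where its mean was at least 1 TPM, which gave 38 tests of 45 pairs of gene and tissue; FABPL outside liver and LIPL in kidney, liver and spleen fell below it. The only call among the 38 was CPT1A in spleen. Its ET-type spleens had 74.4, 50.2, 62.0, 64.7 and 42.4 TPM and its L-type spleens 78.8, 120.8, 93.2, 93.4 and 68.4 TPM. All but the lowest L-type spleen lay above every ET-type spleen. The difference was -0.62 ± 0.20 (58.7 ± 12.6 against 90.9 ± 19.7 TPM, n = 5 each, limma adjusted p = 0.0422).

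That call sat in a tissue where 22.2% of all genes tested were called, 21.5% as lower in ET-type, and the median gene differed by -0.47. With the median difference removed by median-ratio rescaling the CPT1A difference was -0.04 (adjusted p = 0.933), and with transcripts under 80% identity left out it was -0.23 (0.577). That filter removes the 2466-base transcript, which was at 10.9 ± 15.6 TPM in ET-type and 36.5 ± 16.0 TPM in L-type spleens. The full-length transcript of 3238 bases, which the filter keeps, was also lower in ET-type, at 5.02 ± 1.61 against 15.1 ± 3.76 TPM. Those of 2398 and 2389 bases were not, at 19.2 ± 17.9 against 16.7 ± 23.0 TPM and 23.6 ± 6.86 against 22.7 ± 16.9 TPM. Single transcripts were not tested. The joint limma fit with the animal as a replicate block, which also shares 1 spread over the 5 tissues, gave an adjusted p of 0.3601. The call was also lost in 7 of the 10 fits that leave out 1 animal, namely S0242, S0276, S0326, S0355, S0377, S0384 or S0385. Over the 10 fits limma adjusted p ran from 0.0390 to 0.0935. Summed red cell markers (5 of 6 measured) were 110052 to 335802 TPM in ET-type and 5476 to 149592 TPM in L-type spleens. The sum of 8 lymphocyte markers was 77.6 to 182 TPM against 145 to 789.97 TPM, and that of 8 macrophage markers 663 to 1449 TPM against 1374 to 2514 TPM. Each of the 3 sums overlapped between types, and their part in the spleen results was not tested.

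The other 6 genes tested in spleen did not pass. Their differences lay below 0, as did those of 86.8% of all genes, and under median-ratio rescaling those of CD36 (0.0268), MCAT (0.33), FABPH (0.16) and ACSL1 (0.16) lay above 0. CPT1B was at 20.6, 14.9, 21.98, 21.0 and 18.5 TPM in ET-type and 19.0, 31.5, 28.8, 42.9 and 30.6 TPM in L-type spleens, with only L-type S0349 inside the ET-type range. Its difference was -0.60 ± 0.21 (limma adjusted p = 0.0543), and -0.75 (0.0235) without S0349. CD36 (-0.56 ± 0.23, adjusted p = 0.0833), FABP4 (-0.62 ± 0.28, 0.103), ACSL1 (-0.39 ± 0.20, 0.143), FABPH (-0.33 ± 0.35, 0.472) and MCAT (-0.25 ± 0.21, 0.351) did not pass. The median of the 7 was -0.56 beside -0.47 for all genes, and 4 of the 7 had an unadjusted p below 0.05, as did 44.2% of all genes.

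In heart, none of 8 genes tested passed the adjusted threshold in the fit without the block, where 0.0238% of all genes did; 4 of the 8 had an unadjusted p below 0.05, as did 22.2% of all genes. The median difference of the 8 was -0.63, against 0.09 for all genes. ACSL1 was at 84.5, 159.1, 61.2, 65.4 and 69.8 TPM in ET-type and 139, 193, 159, 157 and 172 TPM in L-type hearts, where 4 ET-type hearts lay below all L-type hearts and S0242 lay among them. Its difference was -0.98 ± 0.25 (limma adjusted p = 0.0890), and -1.21 (0.0197) without S0242.

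MCAT was at 28.3, 24.1, 27.1, 11.3 and 14.0 TPM in ET-type and 38.7, 48.2, 35.6, 36.6 and 26.7 TPM in L-type hearts. The groups met only at the lowest L-type heart, and the difference was -0.86 ± 0.27 (limma adjusted p = 0.114, and 0.0422 with the animal as a replicate block). The fit with the block also shares its spread over the tissues, and the part of the block in that p-value was not tested. CPT1B was at 185, 136, 217, 263 and 124 TPM in ET-type and 248, 409, 221, 374 and 308 TPM in L-type hearts, which overlapped (-0.77 ± 0.25, adjusted p = 0.124). FABPH was at 869.95, 534, 481, 178 and 175 TPM in ET-type and 611, 1028, 802, 762 and 651 TPM in L-type hearts (-1.03 ± 0.42, adjusted p = 0.181).

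The 2 ET-type hearts with the lowest FABPH, S0309 and S0326, also stood apart in cell type markers. The summed level of 8 cardiomyocyte markers was 31626 and 25017 TPM in them, against 47471 to 72909.9 TPM in the other 3 ET-type hearts and 73295 to 88687 TPM in the L-type hearts. All 5 ET-type hearts thus lay below all L-type hearts in this sum, beside the lower fitted values of ACSL1, MCAT, CPT1B and FABPH, none of which passed. That of 10 endothelial markers was 756 and 731 TPM in them, against 207 to 531 TPM. Their CD36, which capillary endothelium carries as well as muscle, was the highest of all hearts at 1110.0 and 1054 TPM. Hepatocyte markers (8 genes, of which 2 were at 1 TPM or more in each heart) summed to 58.5 to 127 TPM in ET-type and 17.3 to 50.7 TPM in L-type hearts, without overlap. Red cell markers summed to 138 to 1162 TPM and 30.5 to 144 TPM, with overlap. The part of cell makeup in the heart differences was not tested.

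LIPL, CD36, FABP4 and CPT1A did not pass the test between types in heart, with differences of -0.50 ± 0.38, 0.40 ± 0.25, 0.67 ± 0.63 and 0.04 ± 0.37 and limma adjusted p from 0.371 to 0.956.

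In lung, none of 8 genes tested passed without the block, where 0.213% of all genes did; 3 had an unadjusted p below 0.05, as did 16.2% of all genes. LIPL was at 1.099, 3.11, 0.470, 0.550 and 2.27 TPM in ET-type and 5.54, 4.12, 1.83, 4.39 and 28.6 TPM in L-type lungs, with only L-type S0377 inside the ET-type range. The difference was -1.58 ± 0.56 (limma adjusted p = 0.204, and 0.00981 with the animal as a replicate block), while the median gene differed by -0.15. The fit with the block also shares 1 spread over the tissues. LIPL was low in kidney (mean 0.817 TPM), liver (0.122 TPM) and spleen (0.740 TPM). The blocked p-value of LIPL therefore does not measure the spread between lungs, and the part of the block in it was not tested. The L-type S0385 lung, with the highest LIPL and FABP4 (37.3 TPM), also had the highest summed endothelial markers, 1800 TPM against 209 to 1063 TPM, and macrophage markers, 1163 TPM against 63.8 to 444 TPM. L-type S0377 had the lowest endothelial sum of the L-type lungs, 344 TPM. The 8 cardiomyocyte markers, of which 3 to 8 reached 1 TPM in a lung, summed to 65.2 to 113 TPM in ET-type and 146 to 269 TPM in L-type lungs, without overlap, beside the lower fitted LIPL and FABPH of ET-type lungs. Lymphocyte markers summed to 22.6 to 65.0 TPM and 45.3 to 139 TPM, with overlap. The part of these cells was not tested.

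CPT1A was at 30.4, 20.6, 37.8, 11.8 and 11.8 TPM in ET-type and 60.8, 83.3, 20.7, 54.3 and 52.2 TPM in L-type lungs, where L-type S0377 lay among the ET-type lungs (-1.25 ± 0.40, limma adjusted p = 0.172). FABPH was at 15.8, 27.2, 14.8, 8.93 and 26.1 TPM in ET-type and 38.2, 44.2, 23.8, 36.6 and 53.2 TPM in L-type lungs, with the same single L-type lung inside the range (-1.09 ± 0.30, adjusted p = 0.136). Differences of CD36 (0.44 ± 0.33), ACSL1 (0.12 ± 0.25), FABP4 (-0.85 ± 0.59), MCAT (-0.36 ± 0.21) and CPT1B (-0.34 ± 0.31) did not pass.

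In kidney, with 4 ET-type and 5 L-type libraries, none of 7 genes tested passed, where 0.00376% of all genes did; ACSL1 alone had an unadjusted p below 0.05, as did 8.7% of all genes. The largest differences were CPT1A (-0.83 ± 0.40, limma adjusted p = 0.586) and ACSL1 (-0.81 ± 0.35, 0.573), and the median gene differed by -0.28. In liver, none of 8 passed, where 0.00933% of all genes did, and none had an unadjusted p below 0.05, as 6.58% of all genes did; differences ran from -0.46 (CD36) to 0.44 (FABPL). Liver levels spread widely within a type: L-type CPT1A ran from 19.0 to 378 TPM and L-type ACSL1 from 190.1 to 1714 TPM, with L-type S0385 lowest for both and for FABPL.

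**Figure D5:**
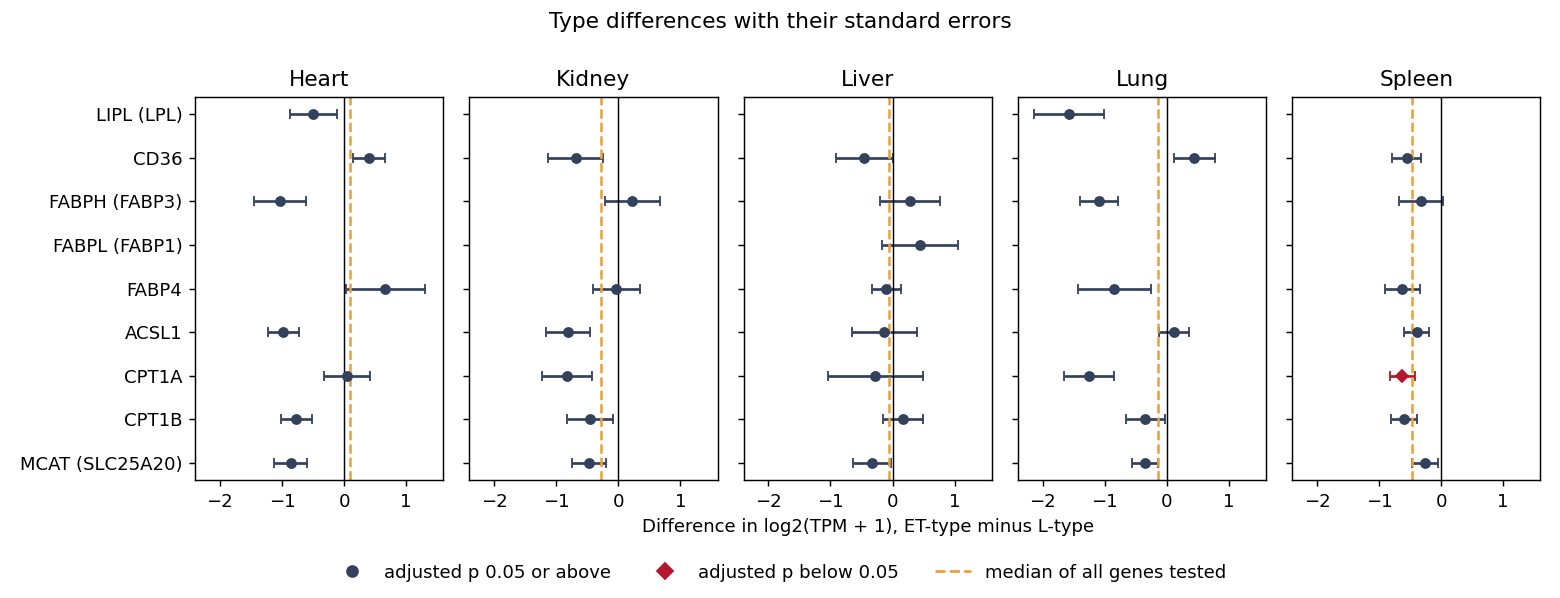
Difference between ET-type and L-type animals in log2(TPM + 1) for each gene tested in each tissue, with standard errors; negative values are lower in ET-type, and the dashed line is the median over all genes tested. Only CPT1A in spleen (-0.62) has an adjusted p below 0.05, and it lies near that tissue's median of -0.47.

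Averaged over heart, liver, lung and spleen, none of the 9 genes passed, where 0.0104% of all genes did; 4 of the 9 had an unadjusted p below 0.05, as did 18.5% of all genes. LIPL was the only one of them whose animal means did not overlap between types, being lower in every ET-type animal (-0.72 ± 0.22, limma adjusted p = 0.173); 4.35% of all genes did not overlap, and 3.96% were lower in ET-type. No gene of the 9 had a type difference that varied between tissues past the threshold, the lowest adjusted p being 0.166 for LIPL, against 6.1% of all genes.

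Of 50 other genes of the pathway, in a list chosen with earlier results of these data known, 45 had an entry. In spleen 4 of 33 tested were called lower in ET-type and 0 higher, a smaller share than the 21.5% of all spleen genes called lower. They were PLPL2 (adipose triglyceride lipase, -0.76 ± 0.20, limma adjusted p = 0.0300), the fatty acid transporter S27A6 (-0.88 ± 0.25, 0.0341), the synthetase ACSL4 (-0.68 ± 0.21, 0.0432) and the malonyl-CoA producer ACACB (-0.73 ± 0.24, 0.0452). The median of the 33 was -0.37, above the -0.47 of all genes, and under median-ratio rescaling PLPL2 (-0.18), ACSL4 (-0.11) and ACACB (-0.28) were no longer called. With the animal as a replicate block the calls of S27A6 (adjusted p = 0.108), ACSL4 (0.103) and ACACB (0.0903) were lost, as was that of ACACB with no filter on low values (0.0593), and each of the 4 calls was lost without S0276, S0326, S0377 or S0384, some also without S0235, S0242, S0355 or S0385. No gene of the list was called in the other tissues without the block.

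PLPL2, which releases fatty acids from stored triglyceride, was lower in every ET-type than in every L-type animal in heart (33.0 ± 4.58 against 71.8 ± 18.6 TPM) and in lung (34.7 ± 8.37 against 67.2 ± 15.8 TPM). The differences were -1.07 ± 0.20 (limma adjusted p = 0.0863, and 0.00120 with the animal as a replicate block) and -0.93 ± 0.20 (0.0782 and 0.00491). Without S0242 the heart difference had an adjusted p of 0.0254, and without S0377 the lung difference 0.0484. AATM, the mitochondrial aspartate aminotransferase that also occurs at the plasma membrane as a fatty acid-binding protein, was 226 ± 120.4 against 547 ± 109.8 TPM in heart without overlap (-1.43 ± 0.35, adjusted p = 0.0880, 0.0102 with the block and 0.0250 without S0242). Averaged over 4 tissues, APOA5 (-0.78 ± 0.14) and PLPL2 (-0.74 ± 0.13) had the smallest p of the list (adjusted p = 0.0976 for each, and 0.0135 and 0.000290 with the block). The main fit of that average compares animal means. The blocked fit uses the 49 libraries, with 1 correlation of 0.124 within animals for all genes. Its spread is shared over the 5 tissues, also for the heart and lung differences above. Groups without overlap made up 4.68% of all genes in heart and 4.2% in lung.

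In liver, the genes of the list with the smallest p encode secreted proteins that act on lipoprotein lipase. APOA5, which activates the lipase, was 72.1 ± 50.4 TPM in ET-type and 379 ± 166 TPM in L-type livers (-2.51 ± 0.52, limma adjusted p = 0.234, and 5.43e-07 with the block). ANGL8, which takes part in its inhibition, was 64.8 ± 37.7 TPM in ET-type and 7.99 ± 6.59 TPM in L-type livers (2.68 ± 0.66, adjusted p = 0.378, and 2.37e-06 with the block). The types overlapped for both genes, and without S0309 the adjusted p of ANGL8 was 0.0335. The fit with the block also shares 1 spread over the 5 tissues, and both genes were low outside liver. Its p-values therefore do not measure the spread between livers, and the part of the block in them was not tested. ANGL4 was 8.80 ± 4.55 against 26.8 ± 8.17 TPM in lung, without overlap (-1.58 ± 0.32, 0.0689, and 0.0155 with the block), and 19.2 ± 21.5 against 66.9 ± 37.3 TPM in kidney, with overlap (-2.09 ± 0.54, 0.562, and 0.00529 with the block). CAV1, the scaffold protein of caveolae, was 8.20 ± 3.52 against 24.6 ± 15.4 TPM in kidney, also with overlap (-1.36 ± 0.42, 0.573).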

How the data were processed

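Per the submitters' processing notes, Trimmomatic 0.36 trimmed the reads, Salmon 1.10.0 quantified them, and the build listed is Sscrofa11.1; per the labels' protocols, RNA was extracted with TRIzol and libraries made with a stranded mRNA kit. The authors deposited TPM values of assembled transcripts, with each library summing to 1000000, and a table of Swiss-Prot matches. No read counts were used, so no count model or interval for counting error was possible.

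TPM were summed per Swiss-Prot entry name (63.9% of transcripts had a match). The 9 genes, the pathway list and the marker lists were chosen with earlier results of these data known. Named genes were all 9, every pathway gene called in a type fit or the 2 with the smallest p where none was, and the 3 entries most like each gene. Fits used limma 3.58.1 in R 4.3.3 (trend, empirical Bayes) on log2(TPM + 1), over genes whose mean reached 1 TPM, with Benjamini-Hochberg adjustment over all genes tested and a threshold of 0.05. Type was compared within each tissue and on animal means, and tissues in 1 fit of 49 libraries. The S0235 kidney was left out. The main fits were also run on simulated data with independent libraries and changes placed only in genes of higher level. That run cannot speak to the pairing by animal, the blocked fit or low levels.

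Libraries of an animal share its number, so the numbers pair samples across tissues: deviations from group means had a mean r of 0.257 over 96 pairs of libraries from the same animal (92 above 0.1) and -0.06 over 384 pairs from different animals of a type (12 above 0.1). The main fits have no animal block; the alternative adds it through limma's duplicate correlation (0.124 for the type fits, 0.0907 for the tissue pairs). Other alternatives were a pseudocount of 0.1, no filter, median-ratio rescaling, leaving out 29 mitochondrial transcripts, matches of at least 80% identity, leaving out each animal, and keeping the S0235 kidney. Gene positions are RefSeq's on Sscrofa11.1; TPM were not measured on that build. Gene levels were computed with pandas 2.3.3 in Python 3.11.15.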

Additional observations from a re-analysis of the deposited data

Results flagged for a closer look

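In groups of 4 or 5 libraries, 9 of 90 sets of values of the 9 genes held 1 library far from the rest of its group. The rule's rate of about 1 in 20 holds for independent, normally distributed values. These sets are TPM that share the same animals, so the count cannot be read against that rate. In L-type livers, FABPH was 18.6 TPM in S0355 against 2.06 to 3.02 TPM, CD36 was 167 TPM in S0355 against 271 to 312 TPM, CPT1B was 3.37 TPM in S0385 against 1.47 to 1.95 TPM, and LIPL was 0.306 TPM in S0377 against 0.1002 to 0.122 TPM. In L-type lungs, S0385 stood apart for LIPL, at 28.6 TPM against 1.83 to 5.54 TPM, and for FABP4, at 37.3 TPM against 5.54 to 12.3 TPM. ACSL1 was 159.1 TPM in the ET-type S0242 heart against 61.2 to 84.5 TPM. FABP4 was 2.59 TPM in the ET-type S0276 spleen against 0.738 to 1.24 TPM, and FABPL was 1.24 TPM in the L-type S0355 kidney against 0 to 0.284 TPM.

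For 4 of 44 other genes of the pathway the difference between types varied between tissues, by the limma interaction test over 49 libraries, where 6.1% of all genes were called; the list was not tested against that share. That test shares 1 spread over the tissues for each gene. ANGL8 and APOA5 (adjusted p = 0.000688 for each) had their largest differences in liver and were low elsewhere. Their interaction p-values therefore do not measure the spread between livers, and neither gene was called between types in the fit of liver alone. ACSL4 (adjusted p = 0.0175) was 43.5 ± 36.8 TPM in ET-type and 11.8 ± 0.531 TPM in L-type livers, while ET-type spleens were lower than L-type spleens. ANGL4 (adjusted p = 0.0187) was lower in ET-type lung and kidney and 269 ± 104 against 204 ± 66.9 TPM in liver. The calls of ACSL4 and ANGL4 were lost in some fits without 1 animal, for both without S0326, S0377, S0384 or S0385 and for ANGL4 also without S0349, and that of ACSL4 with the S0235 kidney kept in (0.0508).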

How the results depend on the processing

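In the joint fit with the animal as a replicate block, 822 genes were called between types in heart (5 in the main fit), 206 in kidney (1), 390 in liver (2), 865 in lung (62) and 833 on the tissue average (3). Unlike the main type fits, that fit also shares 1 spread over the 5 tissues. For the tissue average it uses libraries where the main fit uses animal means. In the interaction, where the main fit is joint too, the block gave 3883 (1812). Of the 9 genes, 1 was called between types in heart (MCAT), 1 in lung (LIPL) and 0 in spleen with the block. Beside the genes whose blocked p the report gives, the blocked fit changed no other call of a named gene between types. A pseudocount of 0.1 gave 0 genes in heart, 2 in kidney, 19 in lung and 1203 in the interaction. Without the filter there were 3 in heart, 0 in kidney and 11 on the average, and 2 of the 9 genes were called in spleen. Median-ratio rescaling gave 0 in kidney, 35 in lung, 737 in spleen (5339 in the main fit), 5 on the average, 1076 in the interaction and 0 of the 9 genes in spleen; the share of spleen calls that were higher in ET-type went from 3.13% to 64.6%, of heart calls from 60% to 33.3%, of lung calls from 12.9% to 28.6% and of calls on the average from 33.3% to 60%. Leaving out mitochondrial transcripts gave 2 in kidney, 36 in lung, 7 on the average and 3510 in the interaction, and 75% of heart calls higher. Matches of at least 80% identity gave 3 in heart, 0 in kidney and 0 of the 9 genes in spleen. Keeping the S0235 kidney gave 0 in kidney and 540 in the interaction, and averaging all 5 tissues gave 1. Without 1 animal, calls ran from 0 to 2162 in heart (the highest without S0242), 0 to 11 in kidney, 2 to 15 in liver, 4 to 213 in lung, 41 to 6179 in spleen (the lowest without S0377, with 50 without S0385), 2 to 19 on the average and 226 to 2889 in the interaction, and calls among the 9 genes from 0 to 1 in heart and 0 to 2 in spleen.

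Differences that changed sign were uncalled in the main fit, except CPT1A between heart and lung (0.00448 under median-ratio rescaling). Under that rescaling they were also the differences between types of CD36 (0.0268), MCAT (0.33), FABPH (0.16) and ACSL1 (0.16) in spleen, of CPT1A in heart (-0.11), of FABP4 in kidney (0.299) and of CD36 on the average (0.13), and CPT1A kidney minus liver (-0.49), MCAT heart minus kidney (0.66), CD36 liver minus lung (0.65), FABPH liver minus spleen (0.29), FABPL lung minus spleen (-0.0171), ACSL1 kidney minus lung (0.42) and ACSL1 heart minus kidney (0.63). Without mitochondrial transcripts they were FABP4 between types in kidney (0.0517), CD36 between types on the average (0.0306), CPT1B kidney minus spleen (0.12), MCAT heart minus kidney (0.14), FABPL kidney minus spleen (0.0830), ACSL1 kidney minus lung (0.28) and ACSL1 heart minus kidney (0.11). A pseudocount of 0.1 turned FABPL between types on the average (-0.0258), and matches of at least 80% identity CPT1A between types in liver (0.419). With the S0235 kidney kept in they were FABPH between types in kidney (-0.33), CPT1A kidney minus liver (-0.0660), MCAT heart minus kidney (0.0483) and ACSL1 heart minus kidney (0.15). Without 1 animal, ranges that crossed 0 were CPT1A kidney minus liver (-0.11 to 0.27), MCAT heart minus kidney (-0.0933 to 0.0644), FABPH liver minus spleen (-0.37 to 0.0331), FABPL kidney minus spleen (-0.13 to 0.0387), ACSL1 kidney minus lung (-0.22 to 0.0547), ACSL1 heart minus kidney (-0.15 to 0.0313) and LIPL kidney minus spleen (-0.0310 to 0.18). Between types they were CPT1A in heart (-0.18 to 0.31) and liver (-0.82 to 0.24), FABPH (-0.24 to 0.62) and FABP4 (-0.26 to 0.14) in kidney, CPT1B (-0.0747 to 0.38), FABPL (-0.17 to 0.82) and ACSL1 (-0.58 to 0.21) in liver, ACSL1 in lung (-0.00355 to 0.36), and CD36 (-0.17 to 0.11) and FABPL (-0.0470 to 0.15) on the average. The causes were not tested. TPM hold no read depth, so the precision of low levels, such as FABPL outside liver, is unknown.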
